A study of Mus musculus with 6 samples.

Results

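The transcripts of 10 transcription factors that set up and maintain the identity of the pancreatic β cell were measured by RNA-seq in islets of diabetic db/db mice and db/m controls. The genes were Mafa, Pdx1, Nkx6-1, Mnx1, Nkx2-2, Neurod1, Pax6, Isl1, Insm1 and Rfx6. They were taken by symbol from the 44713 genes of the deposited count table, all 10 were in it, and all 10 passed the filter on low counts that left 12760 genes for testing. Islets came from 3 db/db mice, which lack a working leptin receptor (genotype Lepr-/- in the labels), and from 3 db/m mice, whose genotype the labels give as wild type. All mice were male, were 5 weeks old when the normal diet began and 10 weeks old at islet isolation, and the db/m mice were littermates of the db/db mice. The labels give the strain as C57BL/6, whereas the methods name db/db mice on the BKS background. Libraries are numbered 1 to 3 in each group, and with 3 mice per group in the methods each library stands for 1 mouse. The receptor defect affects all tissues of a db/db mouse, so that the comparison covers obesity and diabetes together with the loss of the receptor.

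A small set of transcription factors keeps a β cell producing insulin and responding to glucose. Mafa, Pdx1 and Neurod1 bind and activate the insulin genes directly, and Nkx6-1 keeps the insulin-producing program on while other endocrine programs stay off. In the adult mouse islet Mafa, Nkx6-1 and Mnx1 are largely restricted to β cells and Pdx1 to β and δ cells, and these 4 genes are called β-restricted here. Nkx2-2, Neurod1, Pax6, Isl1, Insm1 and Rfx6 are made by all or most endocrine cell types of the islet, and these 6 are called pan-endocrine.

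On mouse genome build GRCm38 (GENCODE M21 annotation), 4 of the genes lie on chromosome 2. These are Neurod1 (chr2:79452521-79456751), Pax6 (chr2:105668900-105697364), Insm1 (chr2:146221921-146225020) and Nkx2-2 (chr2:147177546-147194243). Chromosome 5 holds Mnx1 (chr5:29473034-29478470), Nkx6-1 (chr5:101658139-101664996) and Pdx1 (chr5:147269959-147275848). Rfx6 is at chr10:51677756-51730432, Isl1 at chr13:116298281-116309689 and Mafa at chr15:75745490-75748228. Mafa and Insm1 consist of a single exon each. RefSeq promoter sequences, 250 bases before to 50 bases after a transcription start on GRCm38.p6, were at hand for 8 of the 10 genes, the entries for Mafa and Insm1 missing. The 9 promoters of these 8 genes had a median GC content of 59.7%, against 52.7% over 32851 promoters. They were searched on both strands for 7 motifs. The general E-box CANNTG, the pattern of bHLH factors such as Neurod1, was found for 7 of the 8 genes and in 72.3% of all promoters. It includes CATCTG, found for 1 of the 8 (Nkx2-2) and in 17.2% of all promoters, and the palindromic CACGTG, found for 2 of the 8 and in 7.15%. The homeodomain core TAAT was found for 5 of the 8 and in 58.0% of all promoters, CCAAT for 4 of the 8 and in 37.4%, and TATAAA for 0 of the 8 and in 13.6%. TGCTGA, the core of the element bound by MAF proteins such as Mafa, was found for 2 of the 8 and in 19.5% of all promoters. The windows of CACGTG and TGCTGA are shown, chosen after the matches were seen as motifs that a pair of the genes shares, with matches in capitals within 30 bases of the gene's own strand, where TGCTGA reads as TCAGCA and occurs 2 times in a row in Neurod1.
Pdx1, CACGTG (chr5:147270034-147270063, forward strand): tccagggtaaacCACGTGgggtgccccaga
Nkx2-2, CACGTG (chr2:147186558-147186587, reverse strand): aagacccgcccaCACGTGgccaacctttgc
Neurod1, TGCTGA (chr2:79456669-79456698, reverse strand): ccccgcccgcgcTCAGCATCAGCAactcgg
Nkx6-1, TGCTGA (chr5:101664706-101664735, reverse strand): ggtgagtgcgacTCAGCAgcgcggccgccg
These motifs were chosen with the expression values known, and a match is a description of the letters, not a bound site.

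Between 15641797 and 20614531 reads were counted per mouse, and most of them fell on genes of the exocrine pancreas, although the labels name islet cells. The 46 acinar genes of a fixed list, digestive enzymes and their companions, took 85.3%, 78.1% and 79.1% of the counts in db/db replicates 1, 2 and 3 and 59.2%, 75.3% and 76.6% in db/m replicates 1, 2 and 3. The acinar share was thus higher in every db/db mouse than in any db/m mouse (mean difference of 10.4 percentage points, and 4.87 without db/m replicate 1, p = 0.1 in a two-sided exact permutation test over all 6 mice, which cannot go lower with 3 against 3). Ins2, the main insulin gene of the mouse, took 0.107%, 0.445% and 0.356% of the counts in db/db mice and 2.60%, 0.434% and 0.467% in db/m mice. db/m replicate 1 therefore stood apart with the lowest acinar and the highest Ins2 share, and db/db replicate 1 had the lowest Ins2 share. In RNA from whole islets, fewer β cells and less RNA per β cell cannot be told apart. Levels are given as CPM, counts per 1000000 reads of a library size scaled by the TMM method of edgeR, unless another denominator is named, and 3 counts, the smallest level taken as detectable, correspond to between 0.146 and 0.192 CPM of the whole library.

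All 10 transcription factors had lower mean levels in db/db than in db/m islets, by 2.20-fold for Nkx2-2 up to 56.7-fold for Mafa as ratios of mean CPM, whereas 50.1% of all tested genes had a negative log2 fold change. In edgeR's quasi-likelihood test with Benjamini-Hochberg adjustment over all tested genes, Mafa, Nkx6-1 and Neurod1 passed an adjusted p of 0.05, 3 of 10 genes, while 0.486% of all tested genes passed it in the lower and 0.619% in either direction. At an unadjusted p under 0.05 all 10 genes were lower, where 9.89% of all tested genes were. The levels of the groups did not overlap for 9 of the 10 genes, with Nkx2-2 the exception, and 12.6% of all tested genes had every db/db mouse below every db/m mouse. The median log2 fold change of the 10 genes was -2.28, and that of all tested genes was -0.001.

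Mafa, an activator of insulin transcription in mature β cells, was the gene with the largest fall. Its reads numbered 0, 19 and 2 in db/db replicates 1, 2 and 3 and 1388, 166 and 210 in db/m replicates 1, 2 and 3. The exact Poisson intervals (95%, counting error alone) of the highest db/db and the lowest db/m count were 11.4 to 29.7 and 142 to 193. Mafa was therefore close to absent from 2 of the db/db libraries and well detected in every db/m library. Mean Mafa expression was 0.424 ± 0.621 CPM (SD, n = 3) in db/db against 24.0 ± 23.4 CPM (SD, n = 3) in db/m islets, with a log2 fold change of -5.70 (SE 1.01, adjusted p = 0.0489 from edgeR).

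Nkx6-1, which holds β cells in their insulin-producing state, had 16, 79 and 61 reads in db/db and 1705, 460 and 300 reads in db/m mice. The lowest db/m mouse had more than 3 times the reads of the highest db/db mouse. Its level fell from 35.2 ± 24.3 CPM (SD, n = 3) in db/m to 3.37 ± 1.83 CPM (SD, n = 3) in db/db mice, with a log2 fold change of -3.37 (SE 0.59, adjusted p = 0.0473 from edgeR). Pdx1, the factor needed to form the pancreas and later to run the insulin gene, had 87, 122 and 132 reads in db/db and 1128, 249 and 299 reads in db/m mice. The db/db levels lay close together at 7.72 ± 1.01 CPM (SD, n = 3), below 24.0 ± 15.1 CPM (SD, n = 3) in db/m mice, with a log2 fold change of -1.64 (SE 0.40, adjusted p = 0.108 from edgeR). Without db/m replicate 1 the log2 fold change of Pdx1 was -0.97. Mnx1, a homeodomain factor that keeps β cells from taking on δ-cell traits, was sparse, with 0, 12 and 1 reads in db/db and 77, 24 and 27 reads in db/m islets. The log2 fold change was -2.75 (SE 0.95, adjusted p = 0.223 from edgeR), which moved to -5.46 without db/db replicate 2, the only db/db mouse with more than 1 read.

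**Figure D1:**
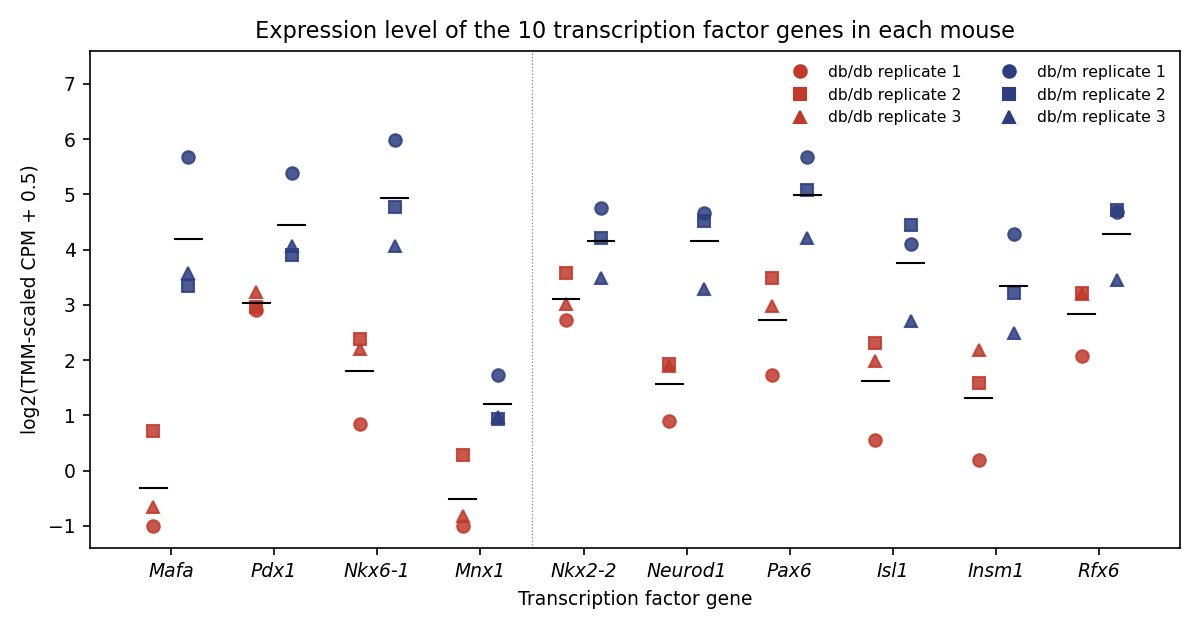
Expression level of each transcription factor gene as log2(TMM-scaled CPM + 0.5), with 1 point per mouse, db/db in red and db/m in blue and a bar at the mean of the 3 log2 values of each group. The 4 β-restricted genes stand left of the dotted line and the 6 pan-endocrine genes right of it, and the groups overlap for Nkx2-2 alone.

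Among the pan-endocrine factors Neurod1, a bHLH activator of the insulin gene, fell by 2.83 on the log2 scale (SE 0.46, adjusted p = 0.0349 from edgeR). It had 17, 55 and 48 reads in db/db and 680, 384 and 171 reads in db/m mice, or 2.63 ± 1.09 CPM (SD, n = 3) against 18.9 ± 8.42 CPM (SD, n = 3). Pax6, which activates hormone genes in several islet cell types, had 35, 179 and 110 reads in db/db and 1381, 570 and 331 reads in db/m islets. The log2 fold change was -2.28 (SE 0.51, adjusted p = 0.0866 from edgeR). Isl1, a LIM-homeodomain factor that works with the cofactor Ldb1, had 12, 75 and 51 reads in db/db and 456, 366 and 111 reads in db/m mice, with a log2 fold change of -2.29 (SE 0.58, adjusted p = 0.113 from edgeR). For these genes db/m replicate 3 was the lowest of its group, and it still lay above every db/db mouse.

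Insm1, a zinc-finger factor of endocrine differentiation, had 8, 42 and 60 reads in db/db and 519, 151 and 95 reads in db/m islets, with a log2 fold change of -2.19 (SE 0.63, adjusted p = 0.152 from edgeR), and -1.505 without db/m replicate 1. Rfx6, a winged-helix factor upstream in endocrine development that is kept in adult islets, had 46, 147 and 129 reads in db/db and 687, 442 and 193 reads in db/m islets. The log2 fold change was -1.53 (SE 0.43, adjusted p = 0.138 from edgeR). Nkx2-2, a homeodomain factor that represses non-β programs, showed the smallest difference, with 76, 191 and 113 reads in db/db and 725, 309 and 197 reads in db/m mice. At 8.37 ± 2.74 CPM (SD, n = 3) and 18.4 ± 7.98 CPM (SD, n = 3) its groups overlapped, since db/db replicate 2 with 11.4 CPM lay above db/m replicate 3 with 10.7 CPM (log2 fold change -1.14, SE 0.37, adjusted p = 0.197 from edgeR). Across the 6 mice the log2 levels of the 10 genes moved together, with Pearson correlations between 0.75 for Isl1 and Pdx1 and 0.99 for Isl1 and Rfx6 over 45 pairs of genes, a description that includes the difference between the groups and the shared libraries.

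The 3 adjusted calls were close to the threshold. Each was lost when db/db replicate 1, 2 or 3 or db/m replicate 1 or 2 was left out, when 0 of the 10 genes passed, whereas 6 passed without db/m replicate 3. Calls over all genes rose too without db/m replicate 3, to 290 of 13640 tested genes in the lower direction, from 62 of 12760 with all 6 mice. In these 6 runs the log2 fold changes ranged from -8.23 to -4.48 for Mafa, from -3.69 to -2.64 for Nkx6-1 and from -3.14 to -2.52 for Neurod1. With the acinar score of each mouse (mean log2(CPM + 1) of the acinar genes) as a covariate, the median log2 fold change of the 10 genes was -1.08, and 0 genes passed the adjusted and 3 the unadjusted threshold of 0.05, where 0.125% and 5.73% of all tested genes passed them in the lower direction. In that fit the log2 fold change was -3.33 for Mafa, -1.81 for Neurod1 and -1.56 for Nkx6-1, the 3 genes at an unadjusted p under 0.05, and -0.09 for Nkx2-2.

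Levels were also divided by exon length in kilobases, and the order of the factors then differed between the groups. The length was that of all annotated exons of a gene merged, 11694 bases for Pax6 and 2158 to 4010 for the other factors. The order between genes depends on this choice. Pax6, at 33.9 CPM in db/m mice, came to 2.90 CPM per kilobase. In db/m mice the highest mean levels were 11.2 CPM per kilobase for Nkx6-1, 11.1 for Pdx1 and 8.76 for Mafa. Their SDs of 7.74, 6.98 and 8.53 (n = 3) were larger than the gaps between them. In db/db mice the order began with Pdx1 at 3.58 ± 0.470 CPM per kilobase (SD, n = 3), Nkx2-2 at 2.91 ± 0.954 and Rfx6 at 1.76 ± 0.726. Nkx6-1 stood at place 4 with 1.07 ± 0.584, and Mafa went from place 3 in db/m mice to place 9 with 0.155 ± 0.227 CPM per kilobase (SD, n = 3). Mnx1 was in place 10 in both groups, at 0.116 ± 0.176 in db/db and 0.842 ± 0.359 CPM per kilobase in db/m mice (SD, n = 3).

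To see how the factors stood against the main product of the β cell, their reads were divided by the Ins2 reads of the same mouse. Ins2 itself had a log2 fold change of -1.23 (SE 0.61, adjusted p = 0.388 from edgeR) and Ins1 of -2.88 (SE 0.64, adjusted p = 0.0870 from edgeR). Without db/m replicate 1 the log2 fold change was -0.37 for Ins2 and -1.90 for Ins1. Relative to Ins2 the factors differed in degree. The ratios of the groups did not overlap for 7 of the 10 genes, each lower in db/db mice, where 2.5% of all tested genes had every db/db ratio below every db/m ratio. The ratios of Pdx1, Nkx2-2 and Rfx6 overlapped. This holds for Ins2, and ratios to Ins1, which fell more, were not worked out for all factors. For Neurod1 they overlapped, since db/db replicate 1 had 17 reads to 2987 of Ins1 and db/m replicate 1 had 680 to 180248. With Ins1 and Ins2 together as library size in edgeR, the median log2 fold change of the factors was -1.19. Of the 10 factors 2 then had an unadjusted p under 0.05, as 115 of 12758 tested genes did in the lower direction.

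Per 10000 Ins2 reads there were 0, 2.53 and 0.346 Mafa reads in db/db and 34.2, 23.7 and 23.6 in db/m mice. The db/m ratios of Mafa thus lay close together in spite of the wide range of Ins2, and the ratio was 28.3-fold lower in db/db mice as a ratio of means (two-sided exact permutation test, p = 0.1, which is the least possible). Without db/db replicate 2, which holds most of the Mafa reads of its group, it was 157-fold lower. Nkx6-1 reached 7.26, 10.5 and 10.6 reads per 10000 Ins2 reads in db/db and 42.0, 65.7 and 33.7 in db/m mice, 4.99-fold lower in db/db mice (exact permutation test, p = 0.1). For Neurod1 the ratio was 7.71, 7.33 and 8.31 in db/db and 16.7, 54.8 and 19.2 in db/m mice, 3.89-fold lower (exact permutation test, p = 0.1), and 2.31-fold lower without db/m replicate 2. The db/db ratios of Neurod1 lay close together, but they rest on 17, 55 and 48 reads. Counting error at such numbers means that they do not show a small variation between mice. In the db/m group, replicate 2 stood far above the other mice. Ratios of means for the other 4 genes without overlap were 4.71 for Mnx1, 3.13 for Isl1, 2.60 for Pax6 and 2.30 for Insm1, db/m over db/db. The ratio of Mnx1 was 32.2 without db/db replicate 2, and that of Isl1 was 1.47 without db/m replicate 2.

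Pdx1 had 39.5, 16.3 and 22.8 reads per 10000 Ins2 reads in db/db and 27.8, 35.5 and 33.6 in db/m mice (p = 0.5 in a two-sided exact permutation test). Nkx2-2 had 34.5, 25.5 and 19.6 in db/db and 17.8, 44.1 and 22.2 in db/m mice (exact permutation test, p = 0.9), and for Rfx6 the exact permutation test gave p = 0.8. db/db replicate 1, the mouse with the least Ins2 and the highest acinar share, had the highest Pdx1 ratio of all 6. Some mice had like amounts of Ins2, since db/db replicate 2 held 74987 Ins2 reads, and db/m replicates 2 and 3 held 70060 and 88930. At that amount of Ins2, db/db replicate 2 had 19 Mafa reads against 166 and 210, and 79 Nkx6-1 reads against 460 and 300. It had 122 Pdx1 reads against 249 and 299, 191 Nkx2-2 reads against 309 and 197, and 147 Rfx6 reads against 442 and 193. In these raw reads db/db replicate 2 was lower than both db/m mice for each of these genes. Per 10000 Ins2 reads, however, its 25.5 for Nkx2-2 lay above the 22.2 of db/m replicate 3, which held more Ins2.

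**Figure D2:**
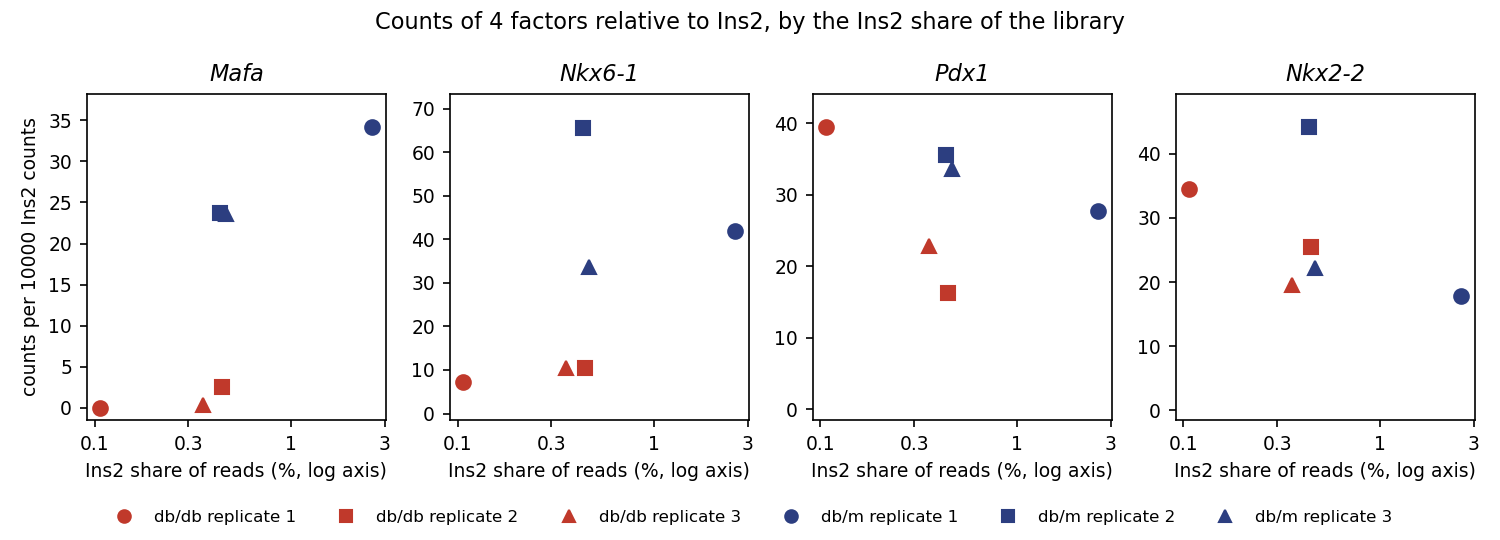
Counts of Mafa, Nkx6-1, Pdx1 and Nkx2-2 per 10000 Ins2 counts (vertical axes, each with its own range) against the share of all counts on Ins2 in percent (log axis), 1 point per mouse, db/db in red and db/m in blue. The db/db ratios of Mafa (0 to 2.53) and Nkx6-1 (7.26 to 10.6) lie below all db/m ratios, and those of Pdx1 and Nkx2-2 overlap with db/m.

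With the Ins2 count as library size in edgeR's quasi-likelihood test, the median log2 fold change of all tested genes was 0.998, Ins2 itself being lower than most genes in db/db mice, and that of the 10 factors was -1.499. All 10 factors had a negative value, as 10.6% of the tested genes did, and Mafa, Nkx6-1, Neurod1 and Mnx1 had an unadjusted p under 0.05, as 1.4% did in the lower direction. Mafa passed the adjusted threshold with a log2 fold change of -4.60 (SE 0.96, adjusted p = 0.00109 from edgeR), as 0.149% of the tested genes did in the lower direction. Nkx6-1 had -2.31 (SE 0.87, adjusted p = 0.318), Neurod1 -1.95 (SE 0.85, adjusted p = 0.418), Pdx1 -0.31 (SE 0.83, adjusted p = 0.781) and Nkx2-2 -0.08 (SE 0.83, adjusted p = 0.942), all from edgeR. The differences of Pdx1 and Nkx2-2 were smaller than their standard errors, which does not show that these ratios were equal. The log2 fold change of Mafa was -6.81 without db/db replicate 2. Its call was lost without db/db replicate 3 (log2 fold change -4.19, adjusted p = 0.266 from edgeR), and Nkx6-1 passed without db/m replicate 1 (log2 fold change -2.38, adjusted p = 0.0481 from edgeR). Without db/m replicate 2, the log2 fold change of Isl1 moved from -1.63 to -0.54, that of Neurod1 from -1.95 to -1.21 and that of Rfx6 from -0.69 to 0.12.

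The same question was asked against 12 secretory genes shared by the endocrine cells of the islet, such as Chga and Pcsk2, summed in each mouse. These genes took 0.0224%, 0.123% and 0.0800% of the counts in db/db and 0.598%, 0.180% and 0.0979% in db/m mice. Per 10000 of their reads, Nkx6-1 had 34.7, 38.1 and 47.1 reads in db/db and 182, 158 and 161 in db/m mice. Pax6 had 75.9, 86.3 and 84.9 in db/db and 148, 196 and 178 in db/m mice. Both groups were narrow in these ratios, and the mean ratio was 4.19-fold lower for Nkx6-1 and 2.11-fold lower for Pax6 in db/db mice (p = 0.1 for each in a two-sided exact permutation test, its lowest value). Mafa had 0, 9.16 and 1.54 reads per 10000 in db/db and 148, 57.2 and 113 in db/m mice. Neurod1 had 36.9, 26.5 and 37.0 in db/db and 72.7, 132 and 91.9 in db/m mice. The groups did not overlap for 7 of the 10 genes, where 2.33% of all tested genes had every db/db ratio below every db/m ratio, and the 3 genes with overlap were again Pdx1, Nkx2-2 and Rfx6. The gap of Insm1 was again narrow, with 46.3 in db/db replicate 3 and 51.0 in db/m replicate 3. With the sum of these genes as library size in edgeR, Mafa passed the adjusted threshold (log2 fold change -4.61, SE 0.96, adjusted p = 0.00102 from edgeR), as 0.18% of the tested genes did in the lower direction, and Nkx6-1 had an unadjusted p under 0.05 but did not pass (log2 fold change -2.06, SE 0.88, adjusted p = 0.217 from edgeR). In that test 9 of 10 factors had a negative log2 fold change, as 7.29% of the tested genes did, and 3 had an unadjusted p under 0.05, as 0.988% did in the lower direction. The mean Mafa ratio was 29.7-fold lower in db/db mice over all 6 and 138-fold lower without db/db replicate 2. Without db/m replicate 1, a setting added after seeing the data, Mafa still passed (log2 fold change -4.26, adjusted p = 0.00155 from edgeR). With all 6 mice, the edgeR p-values over this library size rest on a variance pooled over all genes. They do not measure the spread of Mafa itself among the mice.

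**Figure D3:**
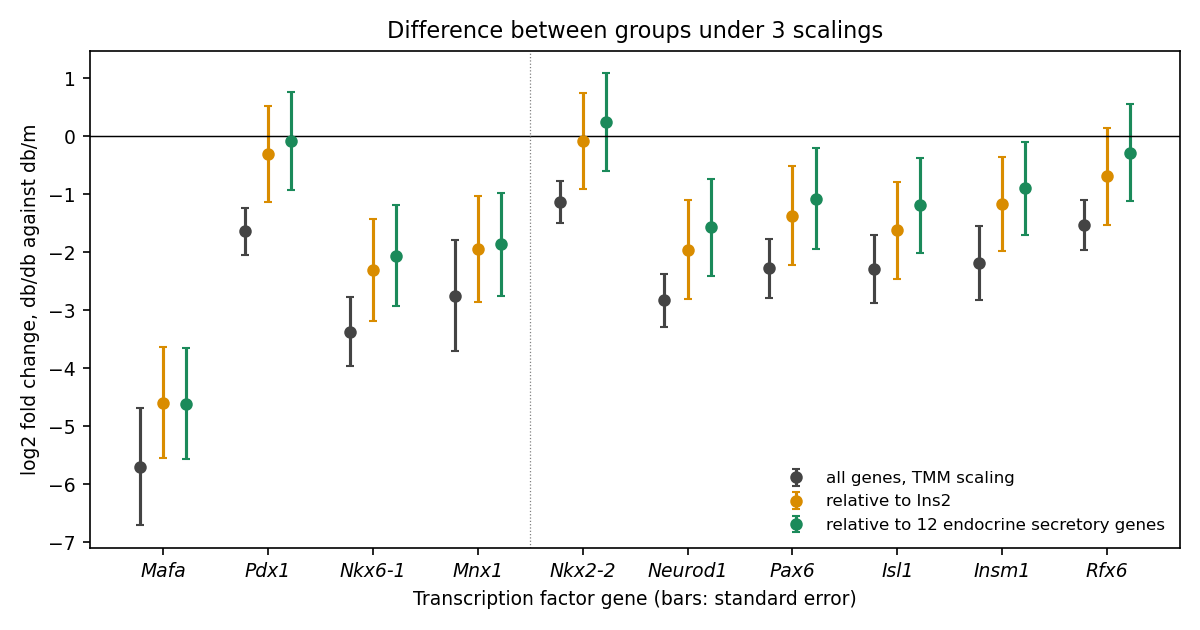
Log2 fold change of each factor between db/db and db/m mice in edgeR, with its standard error as a bar, for TMM scaling over all genes (grey), for the Ins2 count as library size (orange) and for the summed counts of 12 endocrine secretory genes as library size (green). Mafa lies between -5.70 and -4.60 in all 3, and Pdx1 and Nkx2-2 lie at -1.64 and -1.14 in the first and between -0.31 and 0.24 in the other two.

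A comparison within the set was made by dividing each factor by Pdx1, which was chosen as reference after its values were seen. Per 100 Pdx1 reads there were 0, 15.6 and 1.52 Mafa reads in db/db and 123, 66.7 and 70.2 in db/m mice. Nkx6-1 had 18.4, 64.8 and 46.2 in db/db and 151, 185 and 100.3 in db/m mice, and Neurod1 had 19.5, 45.1 and 36.4 in db/db and 60.3, 154 and 57.2 in db/m mice. For these 3 of the 9 genes the groups did not overlap (p = 0.1 for each in a two-sided exact permutation test, its lowest value), where 1.11% of all tested genes had every db/db ratio below every db/m ratio. The other 6 factors overlapped.

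When the acinar genes were removed from the table, the 10 factors together had 97.7, 250 and 209 CPM of the remaining reads in db/db mice and 1371, 783 and 434 CPM in db/m mice. Every db/db mouse lay below every db/m mouse. Only the listed acinar genes were removed. Other transcripts of acinar cells, such as that of the acinar transcription factor Rbpjl, stayed among the remaining reads. These levels are therefore not free of exocrine RNA. For single genes this held for 9 of 10 factors, again without Nkx2-2, where 10.7% of the tested genes had every db/db mouse below every db/m mouse. In edgeR's test over these reads the log2 fold changes were -5.68 for Mafa, -3.34 for Nkx6-1 and -2.80 for Neurod1. All 10 factors had an unadjusted p under 0.05, as 9.26% of the tested genes did in the lower direction. Neurod1 passed the adjusted threshold (adjusted p = 0.0428), as 0.33% of the tested genes did in the lower direction, and Mafa and Nkx6-1 lay just above it (adjusted p = 0.0548 for each, from edgeR). The call of Neurod1 was lost without any one of db/db replicates 1, 2 and 3 and db/m replicates 1 and 2 (adjusted p of 0.0733 to 0.178 from edgeR).

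**Figure D4:**
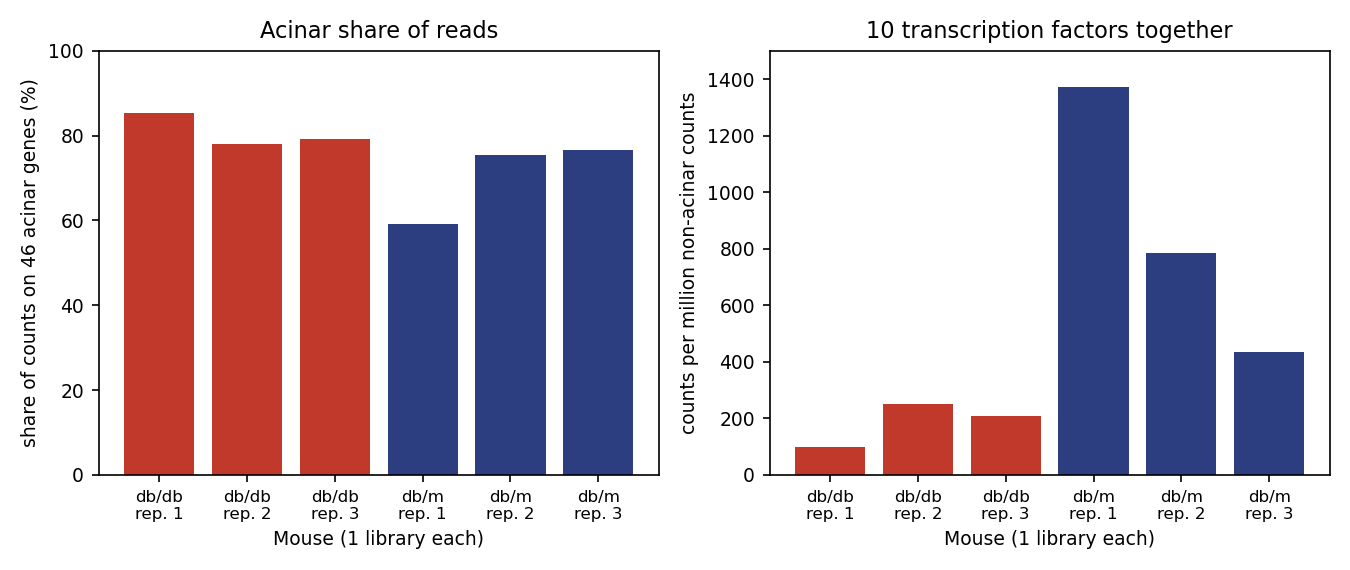
Share of all counts on the 46 acinar genes in percent (left) and the 10 transcription factors together in CPM of the counts outside the acinar genes (right), 1 bar per mouse, db/db in red and db/m in blue. The acinar share is highest in db/db replicate 1 (85.3%) and lowest in db/m replicate 1 (59.2%), and the same mice have the lowest (97.7) and highest (1371) sum of the factors.

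Genes that these factors are known to act on in β cells were lower as well, and here the counts stand beside the same shares of all tested genes given above. Of 15 tested genes on this list, which includes Ins1, Ins2 and Gipr, 15 had lower levels in db/db mice, 12 of them at an unadjusted p under 0.05, and 3 passed the adjusted threshold, with a median log2 fold change of -2.35. The 3 were Slc30a8, the zinc transporter of insulin granules (log2 fold change -4.49, SE 0.64, adjusted p = 0.0246), Slc2a2, the glucose transporter GLUT2 (-4.33, SE 0.67, adjusted p = 0.0315), and Pcsk1, a protease that processes proinsulin (-2.77, SE 0.46, adjusted p = 0.0414), all from edgeR. Slc2a2 had 1.93, 4.54 and 4.64 CPM in db/db and 152, 27.9 and 44.8 CPM in db/m mice. G6pc2, an islet glucose-6-phosphatase, had a log2 fold change of -2.78 (SE 0.50, adjusted p = 0.0504 from edgeR). All 3 calls were lost without db/db replicate 1, 2 or 3, with adjusted p from edgeR of 0.0648 to 0.119 for Slc30a8, 0.137 to 0.154 for Slc2a2 and 0.137 to 0.165 for Pcsk1, and without db/m replicate 2 for Slc30a8 (adjusted p = 0.0587) and Pcsk1 (adjusted p = 0.0750). With the acinar score as a covariate Slc30a8 passed (adjusted p = 0.0317 from edgeR), and Slc2a2 and Pcsk1 did not (adjusted p = 0.0938 and 0.157). Without db/m replicate 1 the log2 fold change was -3.25 for Slc2a2 and -3.85 for Slc30a8. Relative to Ins2 the log2 fold changes were -3.51 for Slc30a8, -2.996 for Slc2a2, -1.69 for Pcsk1 and -1.70 for G6pc2, against -4.60 for Mafa.

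Other islet transcription factors and the cofactors of the 10 genes were taken from fixed lists. Of 21 tested factors, 6 were lower at an unadjusted p under 0.05, 0 were higher and 0 passed the adjusted threshold, with a median log2 fold change of -0.58 and a range from -2.41 to 0.64. The 4 with the smallest p were St18 (-2.23), Prox1 (-1.24), Myt1 (-2.37) and Glis3 (-1.41), with adjusted p of 0.0753, 0.108, 0.175 and 0.197 from edgeR. Myt1 and St18 belong to one family of neural and endocrine zinc-finger factors, Prox1 and Glis3 act in pancreas development. Of 18 tested cofactors, which included Ldb1, Tcf3 and Ep300, only the chromatin remodeller Smarca4 had an unadjusted p under 0.05 (log2 fold change -0.64, adjusted p = 0.326 from edgeR), with a median of -0.20. The 5 acinar transcription factors, Ptf1a and Rbpjl among them, had a median of 0.52, and 0 of them had an unadjusted p under 0.05.

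Markers of the other endocrine cells give the setting of the pan-endocrine factors. Gcg, the glucagon gene of α cells, had 3559, 8967 and 4450 reads in db/db and 30680, 5287 and 3091 reads in db/m mice, and Sst, the somatostatin gene of δ cells, had 470, 1550 and 802 against 6571, 550 and 607 reads. Both overlapped between the groups. Of the 8 α-cell markers 5 were tested, with a median log2 fold change of -0.90 and a summed level of 358 to 684 CPM in db/db and 271 to 1412 CPM in db/m mice. At an unadjusted p under 0.05 the α-cell gene Slc7a2, an amino acid transporter, was lower (-0.90, adjusted p = 0.163 from edgeR) and Gc, which encodes vitamin D-binding protein, was higher (1.59, adjusted p = 0.280 from edgeR). The 6 tested δ- and PP-cell markers had a median of -0.82, with 0 genes at an unadjusted p under 0.05. Among the 12 endocrine secretory genes 6 were lower at an unadjusted p under 0.05 and 0 passed the adjusted threshold, with a median of -1.12. The 4 with the smallest p were Snap25 (-1.398), Pcsk2 (-1.73), Chga (-2.10) and Cpe (-1.09), with adjusted p of 0.108, 0.163, 0.221 and 0.273 from edgeR. Of 46 acinar genes 41 had higher levels in db/db mice, with a median of 0.70. Past the adjusted threshold of edgeR upwards were 5, where 17 of all 12760 tested genes were. The 5 were Prss1, Prss3, Gm10334, Gm5771 and Gm2663, with log2 fold changes of 3.10 to 7.57. Abundant enzyme genes such as Cpa1 (0.60) and Pnlip (0.75) did not pass. The medians were 0.53 for 7 ductal, 0.73 for 10 stromal, -0.64 for 7 endothelial, -0.44 for 9 leukocyte and -0.68 for 2 neural markers. In these 5 lists 0 genes were past the adjusted threshold of edgeR. At an unadjusted p under 0.05 were 7, with Krt19, Spp1, Lum and Lyz2 higher and Krt7, Kdr and Cd79a lower. Of all tested genes, 14.9% had such a p in either direction. The part of these cell types in the levels of the 10 factors was not tested beyond the ratios and the covariate given above.

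**Figure D5:**
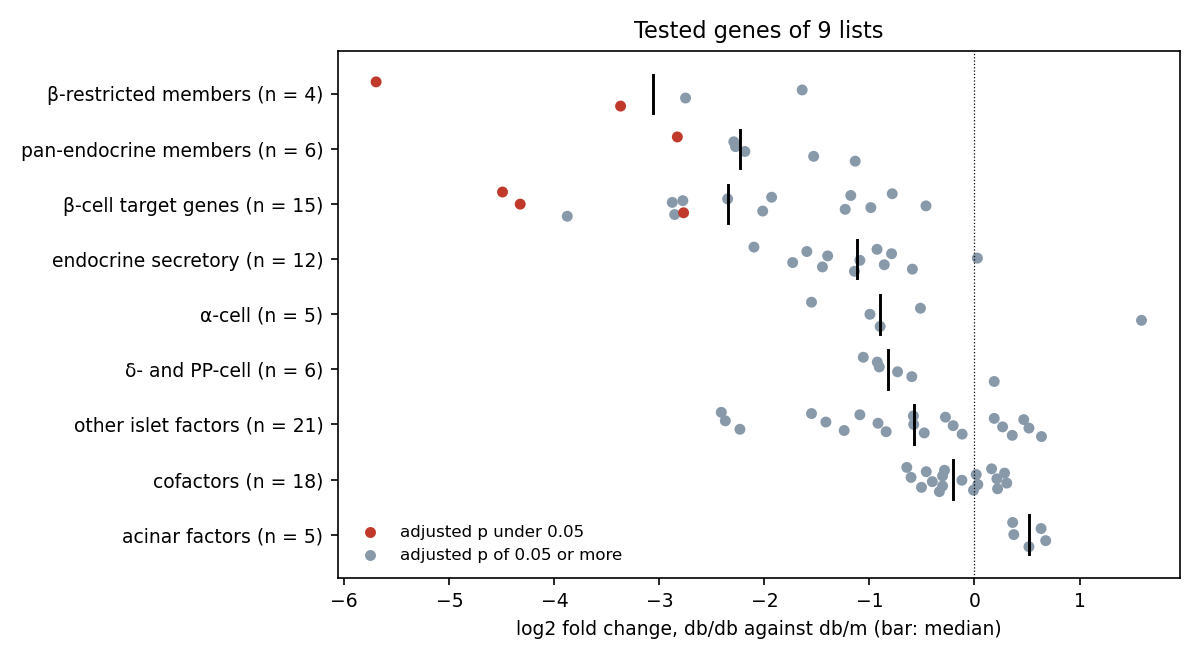
Log2 fold change between db/db and db/m mice for each tested gene of 9 lists, 1 point per gene, red for an adjusted p under 0.05 in edgeR, with a bar at the median of the list. Medians run from -3.06 for the 4 β-restricted factors and -2.35 for β-cell target genes to 0.52 for acinar factors.

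Other genes overlap some of the factors, and the sources used here do not state whether strand was used in counting, so that reads of the partners cannot be told apart. Pax6os1, antisense to Pax6, had 1, 4 and 1 reads in db/db and 63, 25 and 9 reads in db/m mice, lower in every db/db mouse like Pax6. Nkx2-2os, antisense to Nkx2-2, had 3, 11 and 6 reads in db/db and 10, 4 and 2 reads in db/m mice, and its groups overlapped. Cerkl overlaps Neurod1 on the same strand, and had 1, 15 and 4 reads in db/db and 192, 53 and 32 reads in db/m mice, fewer than Neurod1 in each mouse. Nkx2-2 is also overlapped by 6430503K07Rik, with 11 to 30 reads per mouse. Plut on the other strand of Pdx1 and Gm26755 on that of Neurod1 were not analysed here. Mafa, Nkx6-1, Mnx1, Isl1, Insm1 and Rfx6 are overlapped by no other annotated gene.

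The genes most like the 10 factors over the 6 mice were found by Pearson correlation of log2(CPM + 0.5) with the mean of their standardised levels, among 11548 genes with a mean of at least 1 CPM. They were Cntrob, Gipr, March4, Ube2o, Nell1 and Srgap1, with correlations of 0.999, 0.999, 0.999, 0.998, 0.998 and 0.997. Gipr, the receptor of the incretin GIP, had 0.161, 2.69 and 1.61 CPM in db/db and 40.4, 19.1 and 8.18 CPM in db/m mice (log2 fold change -3.88, SE 0.78, adjusted p = 0.0661 from edgeR). Nell1 had a log2 fold change of -3.43 (SE 0.66, adjusted p = 0.0636 from edgeR), and those of the other four were -1.88 for Cntrob, -2.95 for March4, -0.85 for Ube2o and -2.90 for Srgap1. These correlations describe 6 points that share the difference between the groups, and no test was made on them.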

How the data were processed

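The authors removed rRNA before sequencing, filtered adaptors and low-quality reads, and mapped to mm10 with TopHat per the methods, while the submitters' processing notes name HISAT2 2.0.4. The deposited values are raw counts per gene symbol, 1 column per mouse, without normalization. The counting program, annotation and use of strand are not given in the sources used here. Tests used edgeR 4.0.16 in R 4.3.3, with filterByExpr, TMM and the quasi-likelihood F-test, adjusted by Benjamini-Hochberg over all tested genes. The SE was taken as |log2 fold change| over the root of F. The same test was run with Ins2 counts, or counts of 12 endocrine secretory genes, as library size, and without the acinar genes. Single values were compared by exact permutation tests. Intervals and floors cover counting error alone. The p-values of edgeR set the difference between groups against the variation among mice, moderated across genes. With the endocrine secretory genes as library size this moderation was complete, the p-values being those of a normal distribution. They then rest on a variance pooled over all genes. Whether this holds with Ins2 as library size too was not examined. Those of the permutation tests rank that difference among all relabellings of the mice. On simulated data edgeR recovered 186 of 200 genes changed by 3 on the log2 scale among 199 calls and 12482 genes, and called 0 of 12588 with no gene changed. Each gene was drawn on its own there, without the differences in acinar share that the real libraries have. False calls arising from such differences were therefore not measured.

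The named genes were the 10 factors, Ins1, Ins2, up to 4 genes per direction with the smallest unadjusted p under 0.05 in each of 7 lists, and the 6 genes most like the factors. The factors and lists were chosen with earlier results of these data known. Exon lengths and positions were from GENCODE M21 (GRCm38), promoters from RefSeq (GRCm38.p6). No pair of replicates agreed within sampling noise (smallest chi-square over its degrees of freedom 29.3). Alternatives were DESeq2 1.42.0 and other factors, filters, covariates, scalings and left-out mice.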

Additional observations from a re-analysis of the deposited data

How the results depend on the processing

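In the comparison over all genes each of the 10 factors kept a negative log2 fold change in every alternative except Nkx2-2, which had 0.24 with the endocrine secretory genes as library size and 0.10 with the same scaling without db/m replicate 1, a setting chosen after seeing the data. The number of factors past the adjusted threshold, 3 in the main analysis, depended on the setting. It was 8 with DESeq2 and 10 with no filter on low counts, against 1 without genes of at least 1% of a library, 1 with the endocrine secretory genes as library size, also without db/m replicate 1, and 0 with library size alone, with upper-quartile factors, with the replicate block and with the acinar score as a covariate. Leaving out 1 mouse gave 0 to 6. At an unadjusted p under 0.05 it was 10 with library size alone, with upper-quartile factors and with the replicate block, where 18.6%, 9.17% and 6.48% of all tested genes were lower. The number of all genes past the threshold, 79 in the main analysis, was 680 with DESeq2, 888 with no filter, 21 with library size alone, 52 with upper-quartile factors, 16 with the replicate block, 34 with the acinar score, 119 and 123 with endocrine scaling with and without db/m replicate 1, and 10 to 333 with 1 mouse left out. Library size alone moved the median log2 fold change of all genes to -0.59 and that of the 10 factors to -2.87. The cause of these changes was not tested.

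The labels number the mice but state no pairs. Deviations from the group means of same-numbered mice had correlations of -0.53, -0.18 and -0.32, and in no case was the own number the best match. The replicate block was used as an alternative only. With 3 mice per group and libraries that differ in acinar share, this check cannot show that no pairs existed. Relative to Ins2, 1 factor passed in the main analysis, 0 with the replicate block and 0 to 2 with 1 mouse left out. There Nkx2-2 turned to 0.22 with Ins1 and Ins2 together as library size, 0.096 without db/db replicate 3 and 0.40 without db/m replicate 2, with a range of -0.33 to 0.40 over all 6 mice left out. Rfx6 turned to 0.12 without db/m replicate 2, with a range of -1.02 to 0.12. Over non-acinar reads 1 factor passed in the main analysis, 0 with the replicate block, 0 with library size alone and 0 to 6 with 1 mouse left out. The 6 passed without db/m replicate 3, where 284 of 13594 tested genes passed in the lower direction. The difference in acinar share kept its direction in every alternative. Of the other named genes, Ins2 turned to 0.51 and Cpe to 0.088 with the acinar score. The calls of Slc30a8, Slc2a2 and Pcsk1 were lost with the replicate block, library size alone and endocrine scaling. With the endocrine secretory genes as library size, Ins2 turned to 0.16, Prox1 to 0.13, Smarca4 to 0.59, Slc7a2 to 0.42 and Ube2o to 0.45. In that scaling without db/m replicate 1 Ins2 turned to 0.25, Smarca4 to 0.34, Slc7a2 to 0.17 and Ube2o to 0.18. At this depth 0 to 2 reads of Mafa or Mnx1 in 2 db/db mice leave their fold changes imprecise.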
